A study of Mus musculus with 18 samples.

Results

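The LPS response of *Prep*+/- bone marrow-derived macrophages (BMDMs) was measured in 6 of the 18 RNA-seq libraries of the study, chosen by genotype and state: the 3 *Prep*+/- M1 libraries were compared with the 3 *Prep*+/- M0 libraries, across all genes. Bone marrow from the femora of *Prep*+/- mice was differentiated over 7 days in M-CSF (50 ng/ml), the growth factor of the macrophage lineage. M0 cells were then left unstimulated, and M1 cells received 50 ng/ml LPS for 24 h. The mice had a C57BL6/J background and were littermates of *Prep*-/- mice, so that all 6 libraries carry 1 disrupted allele of *Prep*, which encodes prolyl endopeptidase, in every cell, and no wild-type macrophages stand beside them. The M1 state is the standard laboratory form of a macrophage activated by a bacterial product. The labels name biological replicates but not the animal or culture behind each, so the p-values here measure the spread between samples. That spread was estimated over all 18 libraries of the study, not the 6 alone.

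LPS, a component of the outer membrane of Gram-negative bacteria, is carried by CD14 to the receptor complex of TLR4 and MD-2. From there the adaptor MyD88 leads to NF-kappaB and AP-1, which drive cytokine and chemokine genes, and the adaptor TRIF leads to IRF3 and type I interferon. Secreted interferon then acts on the same cells through STAT factors and IRF9, which switch on a large second set of antiviral and cell-autonomous defence genes.

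Promoter windows of 4 genes with large rises are shown with the letters that NF-kappaB and the interferon-activated factors are known to read. The genes were chosen, among called members of the gene lists with the largest rises, because their window holds a match. Each window runs from 250 bases before to 50 bases after the start of the gene in RefSeq, on build GRCm38.p6, which is not the build of the counts (GRCm39). Capitals mark matches, on either strand, to the kappaB letters GGANTTTCC or to the interferon-stimulated response element (ISRE) letters GAAANNGAA, where N is any base. *Cxcl3* encodes a neutrophil chemokine, *Il6* interleukin-6, *Saa3* serum amyloid A3 and *Ifi213* a DNA-sensor family protein. The windows lie at chr5:90785851-90786150 on the plus strand, chr5:30012864-30013163 on the plus strand, chr7:46715627-46715926 on the minus strand and chr1:173599223-173599522 on the minus strand, in the same order.
Cxcl3: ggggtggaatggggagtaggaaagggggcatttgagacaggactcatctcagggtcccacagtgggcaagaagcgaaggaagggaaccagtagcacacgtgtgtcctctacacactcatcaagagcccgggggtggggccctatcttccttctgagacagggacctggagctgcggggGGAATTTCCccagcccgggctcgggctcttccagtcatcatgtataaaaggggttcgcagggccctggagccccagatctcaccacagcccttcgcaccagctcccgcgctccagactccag
Il6: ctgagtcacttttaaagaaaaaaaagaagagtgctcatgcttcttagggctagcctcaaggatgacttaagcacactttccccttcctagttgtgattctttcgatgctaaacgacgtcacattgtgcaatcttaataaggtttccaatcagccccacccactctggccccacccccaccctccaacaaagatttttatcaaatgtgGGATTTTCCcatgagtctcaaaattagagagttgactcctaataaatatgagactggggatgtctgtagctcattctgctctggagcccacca
Saa3: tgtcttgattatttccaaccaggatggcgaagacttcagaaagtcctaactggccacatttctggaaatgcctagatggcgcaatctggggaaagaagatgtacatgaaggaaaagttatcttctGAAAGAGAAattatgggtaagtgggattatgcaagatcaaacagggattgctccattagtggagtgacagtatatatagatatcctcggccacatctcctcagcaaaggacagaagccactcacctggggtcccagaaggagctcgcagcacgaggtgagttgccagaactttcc
Ifi213: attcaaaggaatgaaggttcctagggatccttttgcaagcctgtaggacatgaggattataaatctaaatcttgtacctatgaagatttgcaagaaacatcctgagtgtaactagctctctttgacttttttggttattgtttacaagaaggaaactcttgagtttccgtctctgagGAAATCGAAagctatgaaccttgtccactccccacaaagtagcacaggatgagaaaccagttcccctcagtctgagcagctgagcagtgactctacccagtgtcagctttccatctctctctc
The kappaB match began 72 bases before the start in *Cxcl3* and 43 bases before it in *Il6*. The ISRE match began 125 bases before the start in *Saa3* and 73 bases before it in *Ifi213*. The windows of *Lcn2*, *Il1a*, *Il1b*, *Slfn1*, *Il23r* and *Draxin*, which are among the largest rises below, held neither match. A match of letters is a description of the sequence and does not show that a factor binds there.

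The libraries held between 19068237 and 21739969 counts, and 13096 to 13547 genes had at least 1 count in a library. The median coefficient of variation over 9531 genes was 8.73% in M0 and 8.80% in M1. *Prep* itself (GRCm39, chr10:44943130-45043294) had normalized counts, which are counts scaled to a common library size, of 638, 739 and 900 in M0 and 681, 551 and 663 in M1. These values overlapped (log2 fold change -0.27, SE 0.16, adjusted p = 0.169), and with library totals as the only scaling the value was -0.73 and passed the test. The 7 macrophage markers summed to 22394 to 25898 CPM (counts per 1000000 counts of the library) in M0 and 37540 to 40538 CPM in M1, with 4 of the 7 higher in M1. Most of this sum was *Lyz2*, at 1.78% to 2.19% of the counts in M0 and 2.90% to 3.07% in M1. *Csf1r*, *Cd68* and *Mertk* were not called. Markers of granulocyte precursors summed to 20.6 to 25.7 CPM in M0 and 19.9 to 32.0 CPM in M1, those of stromal cells to 15.4 to 18.6 and 17.6 to 19.1 CPM, and those of B cells to 3.59 to 5.56 and 1.74 to 2.12 CPM. T and NK cell, erythroid, mast cell and dendritic cell markers each stayed at or under 0.577 CPM in all 6 libraries, with the haemoglobin genes *Hbb-bs*, *Hbb-bt* and *Hba-a2* at 0. These sums cover only markers with a row in the counts. Such rows existed for 4 of 8 B cell, 2 of 7 T and NK cell, 6 of 7 erythroid and 2 of 6 mast cell and basophil markers. Among the markers outside the macrophage list, *Camp* (1 of 4 granulocyte genes tested, 1.84) and *Dcn* and *Cdh5* (2 of 6 stromal and endothelial genes tested, 3.67 and 1.84) were called higher and none was called lower, and the part of such cells in the results below was not tested.

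LPS altered genes in both directions. Of 12021 genes tested, 2011 were higher in M1 (16.7%) and 2518 were lower (20.9%) by edgeR's quasi-likelihood test with Benjamini-Hochberg adjustment. A call, here and below, needs more than a 1.5-fold difference besides an adjusted p below 0.05. The median log2 fold change was 1.14 among the higher and -1.28 among the lower genes, beside -0.03 over all genes tested. The groups' libraries did not overlap in 1998 of the higher and 2499 of the lower genes, beside 65.2% of all genes tested. By the fitted fold change 543 genes rose and 700 fell more than 4-fold, but 193 rose and 120 fell more than 16-fold, and 83 rose and 23 fell more than 64-fold. In 92 of the higher genes no M0 library exceeded 3 counts, and in 159 of the lower genes no M1 library did, so that their fold is known only as a lower bound. With these genes at their bound, 148 rose and 56 fell more than 16-fold, and 53 rose and 3 fell more than 64-fold.

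The response also shifted the make-up of the RNA. Genes called higher held 20.9% to 21.3% of the counts in the M0 libraries and 46.2% to 47.4% in the M1 libraries. Genes called lower went from 16.2% to 16.8% of the counts to between 5.22% and 5.74%. *Fth1*, the heavy chain of the iron store ferritin, alone took 1.18% to 1.28% of the counts in M0 and 5.28% to 5.62% in M1. *Saa3* went from at most 0.00466% to between 2.74% and 3.51%. The TMM scaling factors, which offset such a shift, lay between 1.15 and 1.20 in M0 and between 0.818 and 0.886 in M1. With library totals in place of these factors, the median over all genes was lower by 0.46 on the log2 scale, and 1052 genes were higher and 4995 lower, so that the share of calls that were higher went from 44.4% to 17.4%. Small changes below are therefore relative to this scaling, and lists whose balance turned under library totals are named as such. The counts of every list below stand beside 16.7% higher and 20.9% lower among all genes tested.

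**Figure D1:**
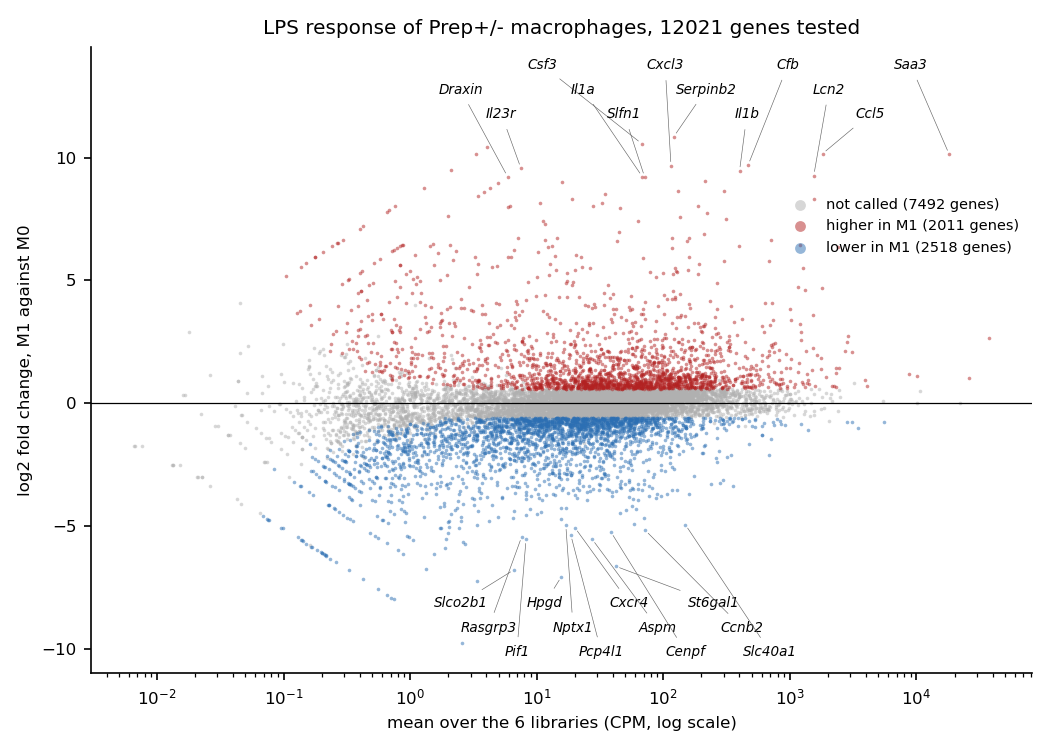
Each point is 1 of the 12021 genes tested, with its mean over the 6 libraries in CPM on a log axis and its log2 fold change in M1 against M0. Red points are the 2011 genes called higher, blue points the 2518 called lower, and names mark the 12 largest rises and 12 largest falls among genes whose groups do not overlap and whose mean reaches 5 CPM. The fitted values of the named rises lie between 9.21 and 10.85, and those of the named falls between -7.06 and -4.94.

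The largest rises were mostly in secreted proteins of inflammation. These and the largest falls below were chosen among called genes whose groups do not overlap. The separation of their M0 and M1 libraries therefore follows from the choice. *Serpinb2* encodes plasminogen activator inhibitor 2 and lies at chr1:107428593-107463208 of GRCm39. Its normalized counts were 5.79, 0.835 and 1.70 in M0 and 4201, 5355 and 5830.1 in M1 (log2 fold change 10.85, SE 0.61, adjusted p = 8.03e-10). *Csf3*, which encodes the granulocyte growth factor G-CSF, had 0.965, 2.51 and 1.70 in M0 and 2048, 3309.7 and 3207 in M1, at least 987-fold higher in M1 (adjusted p = 6.76e-09). Neither gene had more than a few reads in any M0 library, and every M1 library of both lay far above.

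*Ccl5*, a chemokine for T cells and monocytes, had 85.9, 67.6 and 48.4 in M0 and 68418, 80435 and 81573 in M1 (log2 fold change 10.16, SE 0.72, adjusted p = 8.59e-09). *Saa3* (GRCm39, chr7:46361422-46365576), an acute phase apolipoprotein, had 857, 667 and 518 in M0 and 653704, 907451 and 738195 in M1 (log2 fold change 10.14, SE 1.03, adjusted p = 4.53e-07). *Lcn2*, which binds the iron carriers that bacteria secrete, had 116, 126 and 76.3 in M0 and 61465, 68625 and 65695 in M1 (log2 fold change 9.26, SE 0.47, adjusted p = 2.53e-10). All 3 were detected in every M0 library, and their M1 libraries lay far above them.

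The pair of interleukin-1 genes rose together. *Il1b* had 22.2, 29.2 and 20.4 in M0 and 12909, 18853 and 19015 in M1 (log2 fold change 9.46, SE 0.54, adjusted p = 9.32e-10), and *Il1a* had 3.86, 6.68 and 3.39 in M0 and 2509.7, 2717 and 3415 in M1 (log2 fold change 9.23, SE 0.38, adjusted p = 2.11e-11). *Cxcl3*, whose promoter window is shown above, had 7.72, 7.52 and 2.54 in M0 and 3275, 6204 and 5116 in M1 (log2 fold change 9.66, SE 0.37, adjusted p = 1.06e-11). Complement factor B, encoded by *Cfb*, had 20.3, 28.4 and 22.1 in M0 and 22330.5, 17727 and 19373 in M1 (log2 fold change 9.70, SE 0.53, adjusted p = 6.55e-10). *Slfn1*, of the Schlafen family of growth and antiviral genes, had 3.86, 5.01 and 5.94 in M0 and 2887, 2859 and 3291 in M1 (log2 fold change 9.21, SE 0.51, adjusted p = 7.30e-10). The M1 libraries of *Cxcl3* had the widest relative spread of these 5 genes, and in each gene all of them stood far above the M0 values.

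*Il23r* and *Draxin* were at or near 0 in M0, as *Serpinb2* and *Csf3* were. *Il23r*, the receptor chain for interleukin-23, had 0, 0.835 and 0 in M0 and 341, 293 and 318 in M1, an increase of at least 109.6-fold (adjusted p = 2.52e-09). *Draxin*, known as an axon guidance protein, had 0, 0.835 and 0 in M0 and 236, 282 and 229.6 in M1, an increase of at least 86.1-fold (adjusted p = 9.69e-07). Several of these rows carry an uncertainty of counting, because the sources used here do not state the strand setting of the counting, although the library kit preserved strand, nor how shared reads were handled. *Serpinb2*, *Il23r* and *Cfb* overlap another annotated gene on their own strand, the one at *Cfb* with an identical copy of part of its transcript. *Cxcl3* shares a stretch with 91.6% identity with *Cxcl2*, and *Il1a* and *Il1b* have the same annotated gene on the opposite strand.

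The largest falls included enzymes and transporters of the resting macrophage and several genes of cell division. *Hpgd* encodes the enzyme that inactivates prostaglandins and lies at chr8:56747543-56774082 of GRCm39. Its normalized counts were 936, 517 and 523 in M0 and 3.42, 5.95 and 5.13 in M1 (log2 fold change -7.06, SE 0.74, adjusted p = 6.05e-07). *Slco2b1*, an organic anion transporter, had 283, 196 and 355 in M0 and 0, 3.57 and 3.85 in M1, at least 72.3-fold lower in M1 (adjusted p = 1.79e-09). *St6gal1*, which adds sialic acid to glycoproteins, had 1941, 1584 and 1758 in M0 and 25.1, 14.3 and 12.8 in M1 (log2 fold change -6.64, SE 0.25, adjusted p = 1.06e-11). The 3 genes were close to absent in M1 while clearly expressed in each M0 library.

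*Slc40a1*, which encodes ferroportin, the iron exporter, had 7002, 4947 and 6429 in M0 and 186, 202 and 209 in M1 (log2 fold change -4.94, SE 0.29, adjusted p = 1.11e-09). *Cxcr4*, the receptor for CXCL12 that retains cells in bone marrow, had 1089, 747 and 632 in M0 and 17.1, 32.1 and 24.4 in M1 (log2 fold change -5.06, SE 0.41, adjusted p = 4.23e-08). *Rasgrp3*, an activator of Ras, had 258, 317 and 371 in M0 and 11.4, 3.57 and 6.41 in M1 (log2 fold change -5.43, SE 0.37, adjusted p = 5.81e-09). In each, every M1 library lay more than 10-fold below the lowest M0 library.

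*Ccnb2*, cyclin B2 of the G2/M transition, had 3130.3, 2957 and 2814 in M0 and 82.0, 80.9 and 83.4 in M1 (log2 fold change -5.17, SE 0.37, adjusted p = 9.56e-09). *Cenpf*, a kinetochore protein, had 1562, 1505 and 1706 in M0 and 52.4, 35.7 and 37.2 in M1 and a log2 fold change of -5.24. *Aspm*, of the spindle poles, had 1075, 1078 and 1256 in M0 and 26.2, 27.4 and 19.2 in M1 and a log2 fold change of -5.54. *Pif1*, a DNA helicase, had 327, 328 and 369 in M0 and 6.84, 8.33 and 6.41 in M1 and a log2 fold change of -5.54. Replicates of these 4 genes were close together in M0, and no M1 library came near them. *Pcp4l1* (776, 712 and 819 in M0 and 12.5, 16.7 and 26.9 in M1) and the neuronal pentraxin gene *Nptx1* (425, 637 and 1027 in M0 and 14.8, 22.6 and 29.5 in M1) complete the 12. *Nptx1* had the widest spread in M0 of the 12 relative to its mean (mean 697, SD 305, n = 3; log2 fold change -4.97, SE 0.91).

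**Figure D2:**
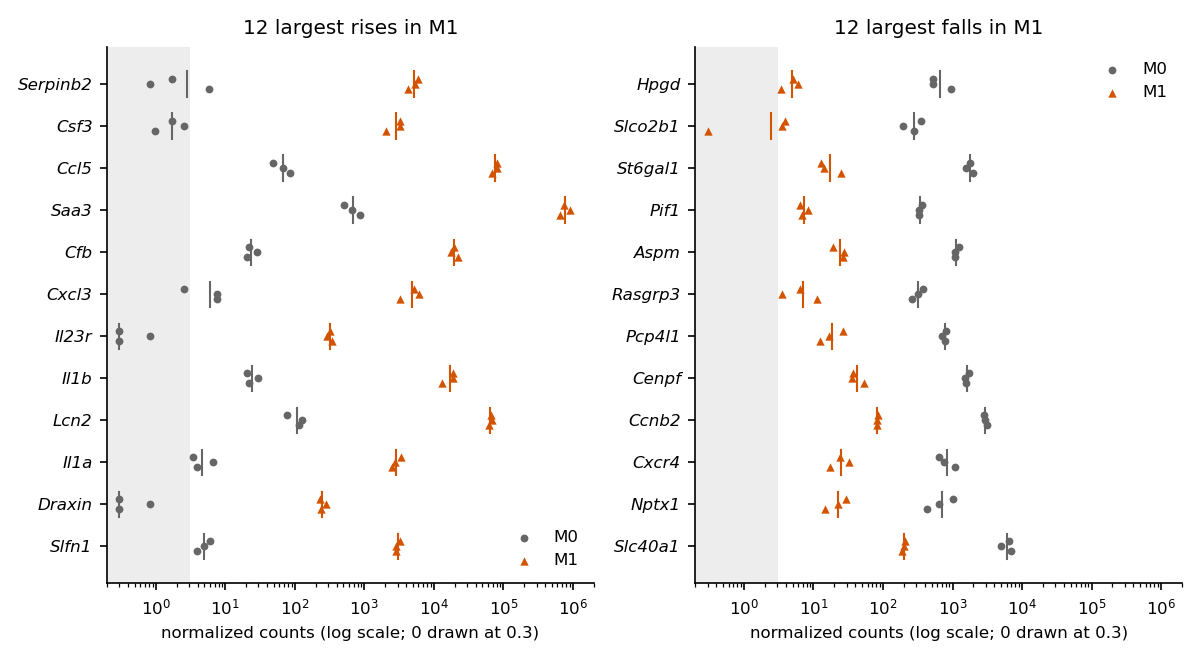
Normalized counts on a log axis in the 3 M0 libraries (grey circles) and the 3 M1 libraries (orange triangles) of the 12 largest rises and the 12 largest falls, with a vertical line at each group's mean. Values of 0 are drawn at 0.3, and shading marks values up to 3. The genes were chosen among those whose groups do not overlap, and single libraries or more of *Serpinb2*, *Csf3*, *Cxcl3*, *Il23r* and *Draxin* lie in the shading in M0, as 1 of *Slco2b1* does in M1.

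The sensing machinery for LPS itself changed in parts. Among 17 genes of the TLR4 receptor and its adaptors, 6 were higher and 1 lower, with a median of 0.29, but with library totals 4 were higher and 6 lower. *Cd14*, the co-receptor that hands LPS to TLR4, had 4901, 5109.6 and 5684 in M0 and 21345, 28264 and 25979 in M1 (log2 fold change 2.27, SE 0.20, adjusted p = 8.09e-08). Its partner gene *Tlr4* went the other way, with 1997, 2196 and 2407 in M0 and 1457, 1280.1 and 1354 in M1 (log2 fold change -0.69, SE 0.12, adjusted p = 1.06e-04). Both differences exceeded the spread of the replicates. The kinase gene *Irak2* and the adaptor gene *Myd88* rose, with log2 fold changes of 1.54 and 1.31, while 10 of the 17, among them *Irak1*, *Irak4*, *Traf6* and *Tirap*, were not called.

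Of 26 receptors for other microbial patterns and inflammasome genes 17 were higher and 2 lower, and 12 and 4 with library totals (median 0.92). *Zbp1*, a sensor of Z-form nucleic acids, rose most, from 108 to 6704 normalized counts (log2 fold change 5.96). *Dhx58*, a regulator of RNA sensing also known as LGP2, rose by 2.81, and *Tlr1*, a partner of TLR2 in sensing lipopeptides, by 2.27 on the log2 scale. *Nlrp3*, the core of the best-known inflammasome, had 668, 899 and 1252 in M0 and 3469, 2905 and 3214 in M1 (log2 fold change 1.77, SE 0.24, adjusted p = 9.56e-06). The flagellin receptor gene *Tlr5* fell, from 44.7 to 5.59, as did *Sting1*, the adaptor of DNA sensing (log2 fold change -0.69, SE 0.13, adjusted p = 2.44e-04). *Tlr7*, *Tlr8*, *Tlr9*, *Tlr13*, *Aim2*, *Cgas* and *Naip5* were not called. *Tlr1* has a stretch of 94.9% identity with *Tlr6*, so reads could be shared between them.

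The rises in the NF-kappaB system were led by its inhibitors and atypical members. Of 16 genes, 10 were higher and 0 lower (median 0.98), and 8 were higher and 3 lower with library totals. *Nfkbiz*, a nuclear co-activator of secondary response genes, had 182, 191 and 186 in M0 and 1984, 1787 and 2125 in M1 (log2 fold change 3.40, SE 0.28, adjusted p = 4.22e-08). *Nfkbia*, which encodes the inhibitor I-kappa-B-alpha and is a classical NF-kappaB target, had 1168, 1594 and 1356 in M0 and 9347, 10276 and 9286 in M1 (log2 fold change 2.81, SE 0.17, adjusted p = 1.49e-09). *Ikbke*, the kinase IKK-epsilon, rose by 2.48. *Nfkb1* had a log2 fold change of 0.56 (SE 0.17, adjusted p = 0.0129), under the fold limit, and *Rela* (0.18) and *Rel* (-0.29) did not pass the test.

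Of 22 negative feedback genes, 11 were higher and 2 lower (median 1.13), unchanged in number with library totals. *Socs3*, the inhibitor of interleukin-6 type signalling, had 77.2, 86.0 and 60.2 in M0 and 9189.9, 8388 and 8894 in M1 (log2 fold change 6.89, SE 0.25, adjusted p = 6.74e-12). *Socs1*, the inhibitor of interferon signalling, rose from 23.2 to 704 (log2 fold change 4.89). *Irak3*, the inactive kinase that damps TLR signalling, rose by 3.54, and *Tnfaip3*, the ubiquitin editor A20, by 2.87. The falls were in *Sigirr*, an inhibitory receptor of the interleukin-1 family (log2 fold change -2.74, SE 0.36, adjusted p = 7.57e-06), and in the immediate-early gene *Nr4a1* (log2 fold change -1.32, SE 0.36, adjusted p = 0.00531). Of the 6 phosphatase genes of the DUSP family listed, *Dusp4*, *Dusp5* and *Dusp6* were not called.

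Of 25 cytokine and growth factor genes tested, 19 were higher and 2 lower, with a median of 3.40. Another 5 (*Il23a*, *Lif*, *Il33*, *Il19* and *Csf2*) were too low to test. *Il6* had 0, 0 and 0.848 in M0 and 124, 279.6 and 224 in M1, at least 72.4-fold higher in M1 (adjusted p = 6.08e-08). *Tnf* was already present in M0 and had 284, 549 and 565 in M0 and 4804, 5432 and 5634 in M1 (log2 fold change 3.50, SE 0.53, adjusted p = 3.70e-05). Neither gene had overlapping groups. Chosen for their roles after their values were seen, *Ifnb1*, the type I interferon of the TRIF arm, had 0, 0 and 0 in M0 and 14.8, 5.95 and 5.13 in M1, at least 2.98-fold higher in M1 (adjusted p = 0.0132), and *Il10*, an anti-inflammatory cytokine, had 77.2, 86.0 and 73.8 in M0 and 152, 313 and 228 in M1 (log2 fold change 1.54, SE 0.38, adjusted p = 0.00278). The falls were in *Igf1*, the insulin-like growth factor of tissue repair (log2 fold change -1.11, SE 0.12, adjusted p = 9.48e-07), and in *Tnfsf13b*, the B cell factor BAFF (-0.73, adjusted p = 0.0498), which did not pass without any 1 of the M0 replicates or M1 replicate 2 or 3 (-0.78 to -0.59). *Il15*, *Tgfb1*, *Pdgfa* and *Pdgfb* were not called.

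Of 22 chemokine genes 18 were higher and 1 lower (2 with library totals), with a median of 4.38, or 4.04 with genes near 0 in a group at their bound. Besides *Ccl5* and *Cxcl3*, *Ccl8*, a monocyte chemokine, had 0.965, 0 and 0 in M0 and 142, 134 and 209 in M1, an increase of at least 56.0-fold (adjusted p = 3.69e-06). The eosinophil chemokine gene *Ccl24* fell, from 35.0 to 3.25 (log2 fold change -3.38, SE 0.68, adjusted p = 4.99e-04). *Ccl22* (0.965, 3.34 and 3.39 in M0 and 25.1, 88.0 and 19.2 in M1) did not pass the test (adjusted p = 0.0824), and *Cxcl14* and *Cx3cl1* were not called.

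Receptors for chemoattractants moved in both directions, with 10 of 18 higher and 8 lower, but 7 higher and 8 lower with library totals. Those for bacterial formyl peptides and leukotriene B4, which guide phagocytes to a site of infection, rose. *Fpr1* had 32.8, 39.3 and 22.9 in M0 and 12241, 12594 and 13400.4 in M1 (log2 fold change 8.65, SE 0.44, adjusted p = 2.95e-10), *Fpr2* rose from 46.7 to 4881 and *Ltb4r1* from 17.8 to 334. The falls were led by *Cxcr4*, described above, and *Cxcr3* (197, 206 and 232 in M0 and 18.2, 5.95 and 20.5 in M1; log2 fold change -3.82, SE 0.42, adjusted p = 9.62e-07). *Gpr183*, the oxysterol receptor, fell by 2.47 and *Cx3cr1*, the fractalkine receptor of resident macrophages and patrolling monocytes, by 2.37 on the log2 scale. *Fpr2* overlaps *Fpr3* on the same strand.

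Interferon-stimulated genes moved almost as a block. Of 39 tested, 38 were higher and 1 lower, with a median of 3.19. The libraries of M0 and M1 did not overlap in any of the 39, which held for 65.2% of all genes tested. *Ifit1*, which binds foreign RNA caps, had 119.6, 81.0 and 139 in M0 and 4805, 5016 and 5547 in M1 (log2 fold change 5.50, SE 0.54, adjusted p = 2.96e-07). *Oasl1*, of the oligoadenylate synthetase family, had 62.7, 37.6 and 83.1 in M0 and 4656, 4593 and 5511 in M1 (log2 fold change 6.33, SE 0.43, adjusted p = 5.81e-09). *Ifi44* rose from 18.3 to 1818 and *Ms4a4c*, a membrane protein gene, from 44.2 to 9402. The exception was *Ifi27*, which fell in every M1 library, with 2073, 1928 and 1591 in M0 and 392, 528 and 517 in M1 (log2 fold change -1.96, SE 0.15, adjusted p = 2.40e-08). Its gene overlaps *Ifi27l2a*, a member that was higher in M1, on the opposite strand. *Mx1* and *Mx2* were not matched to a row of the counts and were not analysed here.

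The PYHIN and Schlafen families, of DNA sensors and growth regulators, gave 14 higher and 1 lower of 17 (median 3.50). *Ifi213*, whose ISRE match is shown above, had 3.86, 4.18 and 5.09 in M0 and 1163, 1048 and 1299 in M1 (log2 fold change 8.02, SE 0.55, adjusted p = 6.80e-09). *Ifi206* rose from 7.63 to 1909 and *Ifi204* from 877 to 9907. *Slfn9* fell (log2 fold change -0.93, SE 0.21, adjusted p = 0.00149) while *Slfn1* stood among the largest rises. *Ifi204*, *Ifi206*, *Ifi213* and *Slfn9* each have a copy with more than 90% identity within their family, so that their reads could be split.

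Guanylate-binding proteins and immunity-related GTPases, which attack the vacuoles of intracellular microbes, gave 14 higher and 1 lower of 15 (median 3.10, or 2.93 with such genes at their bound). *Gbp2* had 284, 231 and 228 in M0 and 4664, 4345 and 5008 in M1 (log2 fold change 4.24, SE 0.38, adjusted p = 1.11e-07), and *Gbp6* had 4.82, 0.835 and 1.70 in M0 and 957, 636 and 794 in M1 (log2 fold change 8.33, SE 0.52, adjusted p = 2.58e-09). *Gbp4* had 0.965, 1.67 and 0.848 in M0 and 61.5, 74.9 and 55.1 in M1, at least 22.1-fold higher in M1. Only *Gbp8* fell (31.8, 23.4 and 23.8 in M0 and 7.97, 2.38 and 3.85 in M1), and it overlaps *Gbp4* and *Gbp9* on the same strand. *Tgtp1*, at 0 in M0, has a copy with 99.8% identity, *Tgtp2*.

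Upstream of these genes, *Irf7*, the amplifier of type I interferon, rose more than any other interferon regulatory factor, with 629.9, 471 and 653 in M0 and 48591, 50816 and 52913 in M1 (log2 fold change 6.44, SE 0.43, adjusted p = 4.78e-09). *Batf*, a partner of IRF factors, rose from 64.7 to 1006. *Irf4*, a factor of alternative activation, was near absent in M1, with 38.6, 36.7 and 42.4 in M0 and 2.28, 0 and 0 in M1, at least 10.2-fold lower (adjusted p = 2.72e-07). Of the 26 genes of this group 14 were higher and 1 lower, 9 and 3 with library totals, and *Irf3*, *Irf5*, *Irf2*, *Tyk2* and *Stat6* were not called.

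MHC class I genes and the immunoproteasome rose together, with 18 of 19 higher, 0 lower and a median of 1.81. *H2-K1* had 16032, 13791 and 12459 in M0 and 52471, 56769 and 56232 in M1 (log2 fold change 1.97, SE 0.17, adjusted p = 5.92e-08), *H2-Q6*, of the class Ib genes, was at 0 in M0 and at least 3.90-fold higher in M1, and *H2-T22* rose from 1408 to 13852. These genes have several near-identical relatives, so single members are uncertain. Of 10 MHC class II genes 2 were higher and 1 lower, and 1 and 1 with library totals. The reported shares were 20% and 10%, beside 16.7% and 20.9% of all genes tested. *H2-Ab1*, the beta chain of I-A, had 116, 124 and 72.1 in M0 and 871, 1178 and 934 in M1 (log2 fold change 3.26, SE 0.60, adjusted p = 2.33e-04), whereas its partner *H2-Aa* had 72.3, 106 and 56.0 in M0 and 76.3, 137 and 92.3 in M1 and was not called (adjusted p = 0.651). The class II master regulator *Ciita* was close to absent in both states, with 19.3, 9.19 and 5.94 in M0 and 0, 3.57 and 0 in M1, at least 2.98-fold lower (adjusted p = 0.0297), and was not called without M0 replicate 1, M1 replicate 1 or M1 replicate 3. *H2-DMa*, the other class II gene called higher (0.73, adjusted p = 0.0206), was not called without M0 replicate 2 or 3 or M1 replicate 2 or 3.

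Costimulatory and checkpoint genes gave 8 higher and 5 lower of 18, and 7 and 7 with library totals. *Cd274*, which encodes the checkpoint ligand PD-L1, had 179, 190.4 and 245 in M0 and 5448, 4221 and 4867 in M1 (log2 fold change 4.56, SE 0.35, adjusted p = 2.51e-08). *Cd40* rose from 242 to 1134 and *Slamf7*, a self-ligand receptor, from 701 to 5934. *Cd83* fell steeply, with 394, 331 and 275 in M0 and 7.97, 20.2 and 14.1 in M1 (log2 fold change -4.56, SE 0.34, adjusted p = 1.63e-08). *Cd276* fell from 294 to 93.4, and *Tnfsf4*, the OX40 ligand, was at least 7.40-fold lower.

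Arginine-using enzymes of both textbook polarization states rose. *Nos2*, inducible nitric oxide synthase and the usual M1 marker, had 0.965, 2.51 and 0 in M0 and 807, 481 and 705 in M1, at least 229.5-fold higher in M1 (adjusted p = 3.51e-07). *Arg1*, arginase 1 and a usual M2 marker, had 54.0, 38.4 and 50.9 in M0 and 2446, 3141 and 3020.2 in M1 (log2 fold change 5.91, SE 0.32, adjusted p = 5.81e-10). The arginine transporter gene *Slc7a2* rose from 80.2 to 3229 (log2 fold change 5.33). The polyamine enzyme genes *Sat1* and *Sms* fell by 0.68 and 0.60 on the log2 scale, the former not passing without M0 replicate 1 or 2 or any 1 of the M1 replicates (-0.76 to -0.52). Of the 17 genes of this group 6 were higher and 2 lower, the latter being 0 or 1 without any 1 of the 6 libraries, and *Ido1* was not tested.

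*Acod1* makes itaconate, the metabolite that inhibits succinate dehydrogenase, and had 204, 269.8 and 146 in M0 and 71896, 57696 and 65317 in M1 (log2 fold change 8.30, SE 0.60, adjusted p = 1.14e-08). Of the 22 genes of its list, which holds the TCA cycle, 4 were higher and 5 lower, and 1 and 7 with library totals. The reported shares, 18.2% and 22.7%, were near the 16.7% and 20.9% of all genes tested. *Mdh2* had a log2 fold change of 0.99, while *Suclg2*, *Idh2* and *Fh1* fell by 0.91, 0.84 and 0.79. Among 71 subunits of oxidative phosphorylation 66 were not called, 4 were higher and 1 was lower (median 0.28), and with library totals 1 was higher and 6 were lower. Without M1 replicate 1 the higher count was 10, and without M1 replicate 2 it was 1. The largest rise of that list was in *Cycs*, cytochrome c (1.51), which has a copy of 99.9% identity, followed by *Cox5a* (0.82) and *Ndufs4* (0.73), and the gene called lower was *Ndufs8* (-0.67).

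Glycolytic and HIF-1 target genes rose in 17 of 25 cases and fell in 1 (median 0.80), and 11 rose with library totals. *Hif1a*, the oxygen-sensitive factor that also responds to LPS, had 949, 1183 and 1399.6 in M0 and 5457, 4755 and 4772 in M1 (log2 fold change 2.08, SE 0.24, adjusted p = 1.83e-06). *Pfkfb3*, which makes the main activator of phosphofructokinase, had 224, 243 and 316 in M0 and 5802, 4114 and 4894 in M1 (log2 fold change 4.24, SE 0.30, adjusted p = 9.55e-09). *Slc16a3*, the lactate exporter, rose from 1805 to 12159.5 and *Hk2*, hexokinase 2, from 391 to 2236. *Pfkm*, the muscle form of phosphofructokinase, fell from 622 to 326. The vascular growth factor gene *Vegfa* was not called (0.39, adjusted p = 0.571).

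Redox genes moved in both directions. *Sod2*, the mitochondrial superoxide dismutase, had 1878, 2025 and 1417 in M0 and 39995, 53079.6 and 47733 in M1 (log2 fold change 4.73, SE 0.19, adjusted p = 2.01e-11). The cystine importer gene *Slc7a11* rose from 27.3 to 773, and *Prdx5*, a peroxiredoxin, from 4888 to 59650.1. Both subunit genes of glutathione synthesis fell, *Gclc* with 939, 1038 and 1213 in M0 and 317, 259 and 332 in M1 (log2 fold change -1.81, SE 0.23, adjusted p = 5.36e-06) and *Gclm* by 1.16 on the log2 scale, as did catalase (*Cat*, from 6903 to 2121). The factor gene *Nfe2l2*, which encodes Nrf2, had a log2 fold change of -0.29. Of 25 genes in the group 11 were higher and 5 lower, and 8 and 8 with library totals.

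Among iron genes the storage gene *Fth1* had 235174, 214343 and 210767 in M0 and 1261120, 1453000 and 1400690 in M1 (log2 fold change 2.64, SE 0.15, adjusted p = 9.32e-10), while the exporter gene *Slc40a1* fell from 6126 to 199. The light chain gene *Ftl1* (0.02) was not called. *Cp*, which encodes the ferroxidase ceruloplasmin, had 2.89, 7.52 and 3.39 in M0 and 1643, 1203 and 1300.4 in M1 (log2 fold change 8.17, SE 0.67, adjusted p = 4.31e-08). *Ncoa4*, the receptor for the breakdown of ferritin, fell by 1.27, a call lost without M0 replicate 3 or M1 replicate 2 (-1.03 and -1.06), and the metallothionein gene *Mt1* by 1.29. The list had 6 of 14 genes higher and 4 lower, and 6 and 6 with library totals. Acute phase and complement genes gave 13 higher and 1 lower of 18, and 13 and 2 with library totals (median 4.49, or 3.05 with such genes at their bound). *Hp*, haptoglobin, rose from 30.8 to 7982. The genes of C1q (*C1qa*, *C1qb* and *C1qc*) were not called.

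Prostaglandin genes moved in opposite senses along the pathway. *Ptgs2*, the inducible cyclooxygenase COX-2, had 5.79, 14.2 and 20.4 in M0 and 452, 649.6 and 449 in M1 (log2 fold change 5.23, SE 0.58, adjusted p = 1.11e-06), and *Ptges*, the inducible prostaglandin E synthase, had 74.3, 85.2 and 56.0 in M0 and 12907, 13705 and 12627 in M1 (log2 fold change 7.51, SE 0.25, adjusted p = 2.41e-12). The constitutive enzyme gene *Ptgs1* fell from 425 to 90.6 (log2 fold change -2.23, SE 0.17, adjusted p = 2.67e-08). *Ltc4s*, leukotriene C4 synthase, fell from 255 to 36.5, and *Hpgd*, which degrades prostaglandins, had the largest of the falls named above. In total 6 of 18 were higher and 7 lower, and 3 and 8 with library totals.

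Of 28 genes of sterol and fatty acid synthesis 7 were lower and 1 higher, with a median of -0.45, close to the shift between scalings. With library totals 17 were lower and 0 higher, and the higher count was also 0 without M0 replicate 1 or 2 or M1 replicate 1 or 3. *Elovl6*, which elongates fatty acids, fell from 199 to 73.7 (log2 fold change -1.43, SE 0.33, adjusted p = 0.00172). *Stard4*, a sterol carrier, fell by 1.22, and the factor gene *Srebf2* was under the fold limit (-0.49). *Nr1h3*, which encodes the oxysterol receptor LXR-alpha, rose, with 221, 319.9 and 206 in M0 and 2125, 2411 and 2061 in M1 (log2 fold change 3.14, SE 0.23, adjusted p = 1.19e-08). Its target *Abca1*, the cholesterol exporter, rose from 1642 to 5698, whereas the target *Apoe* fell from 23081 to 12655 (log2 fold change -0.87, SE 0.35, adjusted p = 0.0463). The call on *Apoe* was lost without M0 replicate 1, where it moved to -0.61, and without M0 replicate 2 or any 1 of the M1 replicates (-0.95 to -0.82). *Pparg*, a lipid factor of alternative activation, fell from 390 to 54.3, and *Lipa*, lysosomal acid lipase, from 23437 to 5505. The LXR and lipid list as a whole had 5 of 21 higher and 3 lower, and 4 and 8 with library totals. The reported shares were 23.8% and 14.3%, beside 16.7% and 20.9% of all genes tested.

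Phagocytic receptors moved in both directions. *Marco*, a scavenger receptor for bacteria, had 1299, 1659 and 682 in M0 and 97628, 108143 and 93212 in M1 (log2 fold change 6.36, SE 0.45, adjusted p = 8.80e-09). *Clec4e*, the receptor Mincle for mycobacterial glycolipid, had 2043, 2601 and 1933 in M0 and 55167, 52039 and 51999.9 in M1 (log2 fold change 4.60, SE 0.21, adjusted p = 6.41e-11), and *Fcgr1*, the high-affinity receptor for IgG, rose from 1699 to 28965. *Mrc1*, the mannose receptor, had 11566, 9633 and 12063 in M0 and 2633, 1934 and 2798 in M1 (log2 fold change -2.18, SE 0.18, adjusted p = 3.66e-08). *Trem2*, a lipid receptor of tissue macrophages, had 17536, 14963 and 13613 in M0 and 4259, 5211 and 4937 in M1 (log2 fold change -1.68, SE 0.18, adjusted p = 7.70e-07), and *Clec10a* fell from 277 to 66.1. In all 11 of 25 were higher and 7 lower, and *Cd36*, *Axl*, *Mertk* and *Cd163* were not called. Of 38 lysosomal genes 10 were higher and 4 lower, and 3 and 7 with library totals. The reported counts are 26.3% and 10.5% of the list, beside 16.7% and 20.9% of all genes tested. *Ctsc*, *Ctsz* and *Ctsh*, cathepsins of antigen and granule processing, had log2 fold changes of 2.01, 1.83 and 1.77. *Ctsb* had 224428, 211951 and 205171 in M0 and 218648, 211961 and 205721 in M1, and its value (-0.01) changed sign between scalings, with -0.47 passing the test under library totals (adjusted p = 0.000719). *Atp6v0d2*, a macrophage and osteoclast form of a proton pump subunit, fell from 296 to 39.0.

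**Figure D3:**
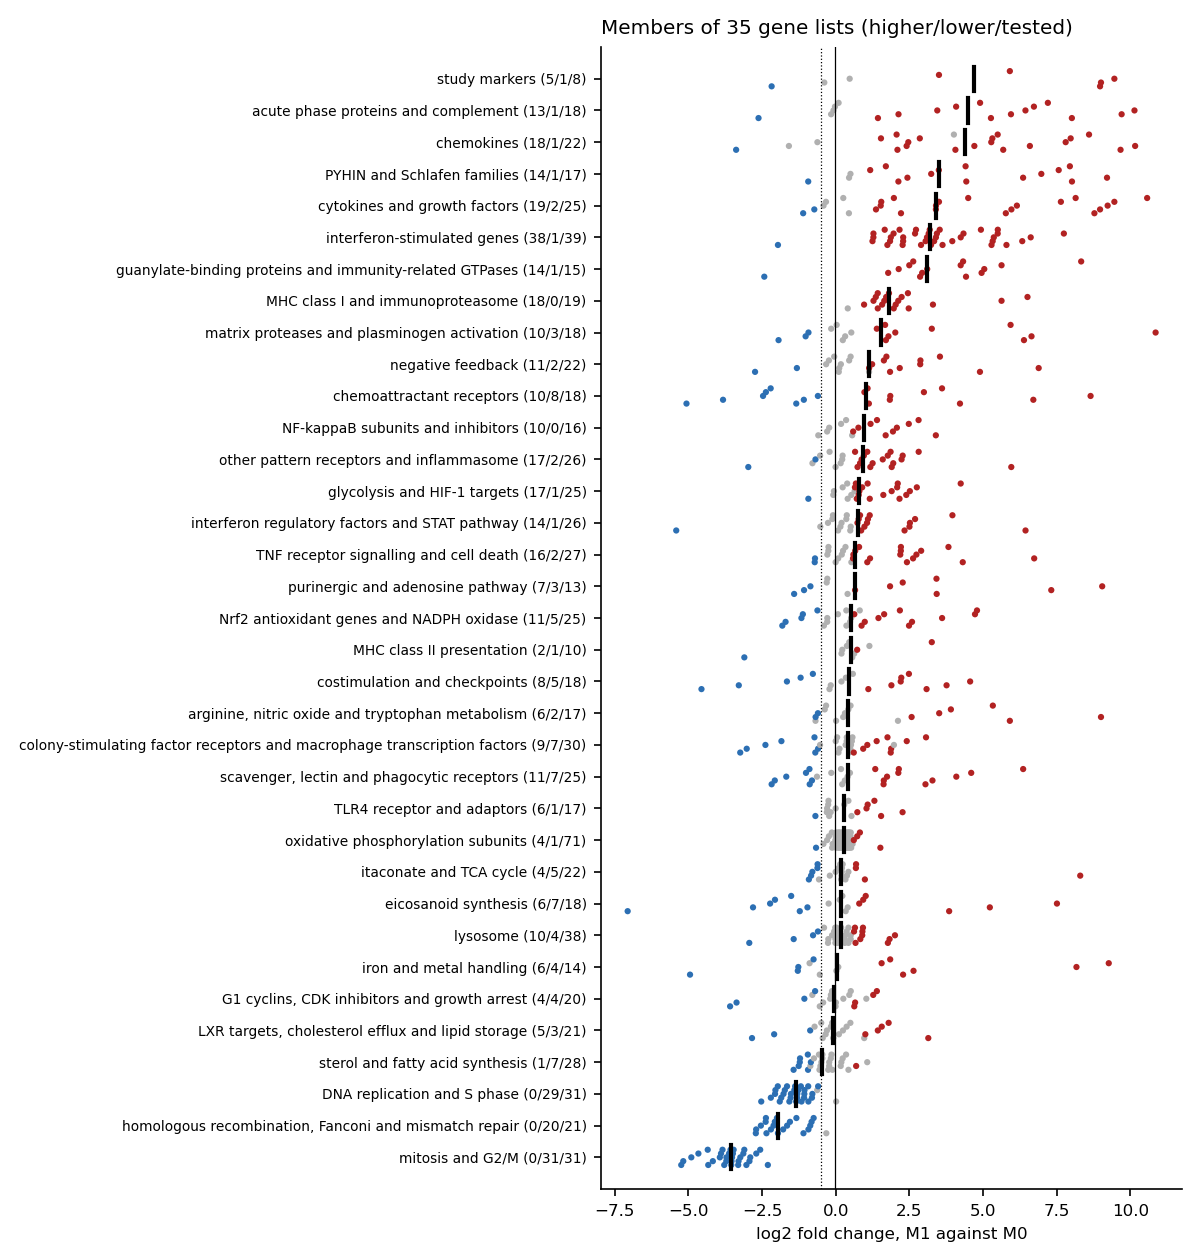
Log2 fold change in M1 against M0 (x axis) of the tested members of 35 gene lists, ordered by the median of the list (black tick). Points are red where the gene was called higher, blue where lower and grey where not called, and the numbers after each name are members higher, lower and tested. The solid line is the median of all genes (-0.03) and the dotted line that median with library totals (-0.50). With library totals the balance turned for the TLR4, chemoattractant receptor, oxidative phosphorylation, LXR, lysosome and colony-stimulating factor lists. The 3 lists of cell division and repair lie at the bottom with 0 members higher under both scalings. The study markers lie at the top, followed by the acute phase, chemokine, PYHIN and Schlafen, cytokine and interferon-stimulated lists.

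All 31 genes of mitosis and G2/M were lower in M1, with a median of -3.54. None had overlapping groups, beside 65.2% of all genes tested without overlap. In bulk RNA of a culture, fewer dividing cells and less of this RNA per cell cannot be told apart. *Mki67*, the proliferation antigen, had 9920.5, 10630.1 and 11799.9 in M0 and 1280.5, 1102 and 1046 in M1 (log2 fold change -3.24, SE 0.29, adjusted p = 1.01e-07). *Cdc20*, the activator of anaphase, had 2596, 2343 and 2271 in M0 and 72.9, 72.6 and 96.2 in M1 (log2 fold change -4.90, SE 0.32, adjusted p = 4.20e-09). Of 31 genes of DNA replication and S phase, 29 were lower and 0 higher, but with the smaller median of -1.34. *Rrm2*, of ribonucleotide reductase, had 3489, 4067 and 4317 in M0 and 866, 852 and 863 in M1 (log2 fold change -2.20, SE 0.45, adjusted p = 6.23e-04). *Tk1*, thymidine kinase, fell from 3467 to 601, and *Mcm2*, of the replicative helicase, from 1518 to 725. *E2f1* was not called, with 1843, 1919 and 1738 in M0 and 1779, 2005 and 1769 in M1. Library totals gave 31 and 30 lower genes in these lists.

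Genes of homologous recombination, the Fanconi pathway and mismatch repair fell with them, 20 of 21 being lower (median -1.96). *Brca1* had 914, 936 and 1103 in M0 and 294, 217 and 229.6 in M1 (log2 fold change -1.99, SE 0.27, adjusted p = 1.04e-05). *Fancd2*, the central Fanconi protein gene, fell from 553 to 84.0 and *Fanci* from 485 to 74.5, and *Fanca* was not called. Regulators of G1 gave 4 of 20 higher and 4 lower. These shares, 20% each, were near the 16.7% and 20.9% of all genes tested. With library totals 2 were higher and 7 lower, and the higher count was 2 without M1 replicate 3. *Ccnd1*, cyclin D1, had 3444, 7469.8 and 9509 in M0 and 4229, 3762 and 3787 in M1 and did not pass the test (adjusted p = 0.269), but passed in a fit of the compared libraries alone (-0.78, adjusted p = 0.0343). *Ccnd3* rose from 2231 to 5392, while the inhibitors *Cdkn2c* (2977, 2814 and 3078 in M0 and 293, 275 and 292 in M1) and *Cdkn1c* (from 136 to 11.4) fell. *Cdkn1a*, the inhibitor p21, was not called (0.26, adjusted p = 0.103).

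Among macrophage factors and receptors for colony-stimulating factors 9 of 30 were higher and 7 lower, and 6 and 7 with library totals. *Cebpb*, a factor of inflammatory macrophages, had 2268, 2195 and 2326 in M0 and 10292, 13346 and 12445 in M1 (log2 fold change 2.41, SE 0.17, adjusted p = 7.45e-09). *Maff* rose from 29.7 to 251 and *Csf3r*, the receptor for G-CSF, from 369 to 1359. The early growth response gene *Egr2*, known in alternative activation, fell from 98.4 to 18.8 (log2 fold change -2.39, SE 0.45, adjusted p = 3.07e-04). *Csf1r*, the receptor for M-CSF, had 24489, 24549 and 27666 in M0 and 28398, 25549 and 27833 in M1 and was not called, and its value of 0.09 changed sign with library totals.

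TNF receptor signalling and cell death genes gave 16 higher and 2 lower of 27, and 11 and 5 with library totals (median 0.66). The survival gene *Bcl2a1a* rose from 5.49 to 604 and *Bcl2a1d* from 44.1 to 875, but these copies are 98.8% identical, so that their split is uncertain. *Traf1*, an NF-kappaB target, had 165, 186 and 126 in M0 and 2278, 2312 and 2171 in M1 (log2 fold change 3.83, SE 0.24, adjusted p = 3.00e-09). *Bid* and *Bcl2l11*, which promote apoptosis, fell by 0.70 and 0.71 on the log2 scale, the latter not passing without M1 replicate 2.

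Genes of matrix breakdown were led by *Serpinb2*, with 10 of 18 higher and 3 lower (median 1.53). *Mmp14*, a membrane-bound collagenase, had 353, 387 and 159 in M0 and 26704, 33456 and 29725 in M1 (log2 fold change 6.64, SE 0.58, adjusted p = 8.12e-08), and *Thbs1*, thrombospondin, had 232, 111 and 249 in M0 and 17255, 15859.5 and 16338 in M1 (log2 fold change 6.39, SE 0.36, adjusted p = 9.18e-10). *Mmp9* rose from 14.9 to 931. *Spp1*, osteopontin, had 88939, 97919.8 and 109045 in M0 and 44603, 50119.7 and 51024 in M1 (log2 fold change -1.02, SE 0.38, adjusted p = 0.0321), a call that was lost without M0 replicate 2 or 3 or any 1 of the M1 replicates (-1.09 to -0.93). *Plau*, urokinase, had 2263, 4649 and 7491 in M0 and 1177, 1236 and 1341 in M1 (log2 fold change -1.94, SE 0.76, adjusted p = 0.0411), and its call was lost without the same libraries (-2.02 to -1.45). In the purinergic and adenosine pathway 7 of 13 were higher and 3 lower, and 6 and 5 with library totals. *Cd38*, an enzyme that consumes NAD, had 29.9, 14.2 and 8.48 in M0 and 8756, 9074 and 9483 in M1 (log2 fold change 9.04, SE 0.28, adjusted p = 2.41e-12). *Adora2a*, an adenosine receptor, had 1.93, 3.34 and 3.39 in M0 and 435, 583 and 437 in M1 (log2 fold change 7.31, SE 0.26, adjusted p = 5.17e-12), while *Entpd1*, which encodes the ATP-degrading enzyme CD39, fell from 1102 to 414.

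The M1 and M2 markers that the study chose for this model were 5 of 8 higher and 1 lower in M1, a list that is not independent of these samples. The other polarization of the study, M2, was the same kind of *Prep*+/- cells after 24 h in IL-4 and IL-13, both at 20 ng/ml. Both comparisons use the same M0 libraries, and M1 against M2, the test of their difference, uses the same M1 libraries, so the values are given side by side. In M2 against M0, 12.9% of genes were called, and between M1 and M2 37.3% were. *Arg1* rose under both, by 5.91 with LPS and by 9.89 with IL-4 and IL-13, and was lower in M1 than in M2 (-3.98, adjusted p = 4.43e-09). *Mrc1* had -2.18 with LPS and 2.25 with IL-4 and IL-13 (M1 against M2 -4.42, adjusted p = 2.31e-11). *Chil3* and *Retnla*, classical M2 genes, were not called with LPS (0.47 and -0.39), beside 7.09 and 9.57 with IL-4 and IL-13.

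*Tnf* had 3.50 with LPS and -2.07 with IL-4 and IL-13 (M1 against M2 5.57, adjusted p = 7.95e-07). *Nptx1* fell with both, by 4.97 with LPS and by 3.14 with IL-4 and IL-13, and M1 against M2 did not pass (-1.83, adjusted p = 0.109). The mitotic list had a median of -0.51 in M2 against M0, with 1 of 31 lower, and all 31 were lower in M1 than in M2. In M2 the interferon-stimulated list had 1 gene higher and 4 lower, and 38 of 39 were higher in M1 than in M2. MHC class II had a median of 2.04 in M2 against M0, and 2 of its 10 genes were higher and 5 lower in M1 than in M2.

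LPS was also given to *Prep*-/- BMDMs, in 6 further libraries that share none with those above. The difference between the responses, tested as an interaction, was called in 2540 of 12021 genes (21.1%). Replicate 3 of *Prep*-/- M0 stood apart from its group, with a chi-square per degree of freedom of 112 to 120 against its replicates, beside 9.87 to 34.5 among the 6 *Prep*+/- libraries, and without it the count was 2453. Of the genes called higher in *Prep*+/- cells 1358 (67.5%) were also called higher in *Prep*-/- cells and 36 lower, and of those called lower 1503 (59.7%) were also lower and 75 higher, beside 20.9% of all genes tested called higher and 21.0% called lower with LPS in *Prep*-/- cells. *Il1b* rose less in *Prep*-/- cells, with 188, 64.7 and 41.0 in M0 and 2036, 4321 and 4233 in M1, a difference of -4.27 on the log2 scale (SE 0.61, adjusted p = 1.79e-04). *Slfn1* likewise had 143, 65.6 and 45.9 in *Prep*-/- M0 and 5057, 2838 and 4109 in M1 (difference -3.64, SE 0.66, adjusted p = 0.00111). In both genes the *Prep*-/- M0 libraries lay above all *Prep*+/- M0 libraries.

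*Pcp4l1* fell less in *Prep*-/- cells, with 345, 260.4 and 635 in M0 and 179, 111 and 121 in M1 (difference 3.77, SE 0.97, adjusted p = 0.0102). *St6gal1* had log2 fold changes of -6.64 and -5.23, and the difference of 1.40 passed the test (SE 0.33, adjusted p = 0.00622). For the other 20 genes with the largest changes and for the 8 M1 and M2 markers other than *Il1b* the difference was not called. The genes with the largest changes were picked by the size of the *Prep*+/- response, which is part of this difference. Without *Prep*-/- M0 replicate 3 the number called among the 8 went from 1 to 2, *Il1b* included. For *Csf3* the difference was -5.25 with an SE of 3.14, and for *Saa3* it was -0.11 (adjusted p = 0.947). Among the lists, sterol and fatty acid synthesis had the largest share of members whose response differed, 27 of 28 with and without *Prep*-/- M0 replicate 3, with a median of -0.45 in *Prep*+/- and 1.23 in *Prep*-/- cells. For oxidative phosphorylation it was 3 of 71, or 4 without that library, and for itaconate and the TCA cycle 3 of 22, or 4 without it. The mitotic list had medians of -3.54 and -2.70, and the S phase list -1.34 and -0.38, with 12 and 17 of their 31 members called for a difference, or 10 and 24 without that library. MHC class II had medians of 0.51 and -1.69, with 7 of 10 called, or 6 without it.

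**Figure D4:**
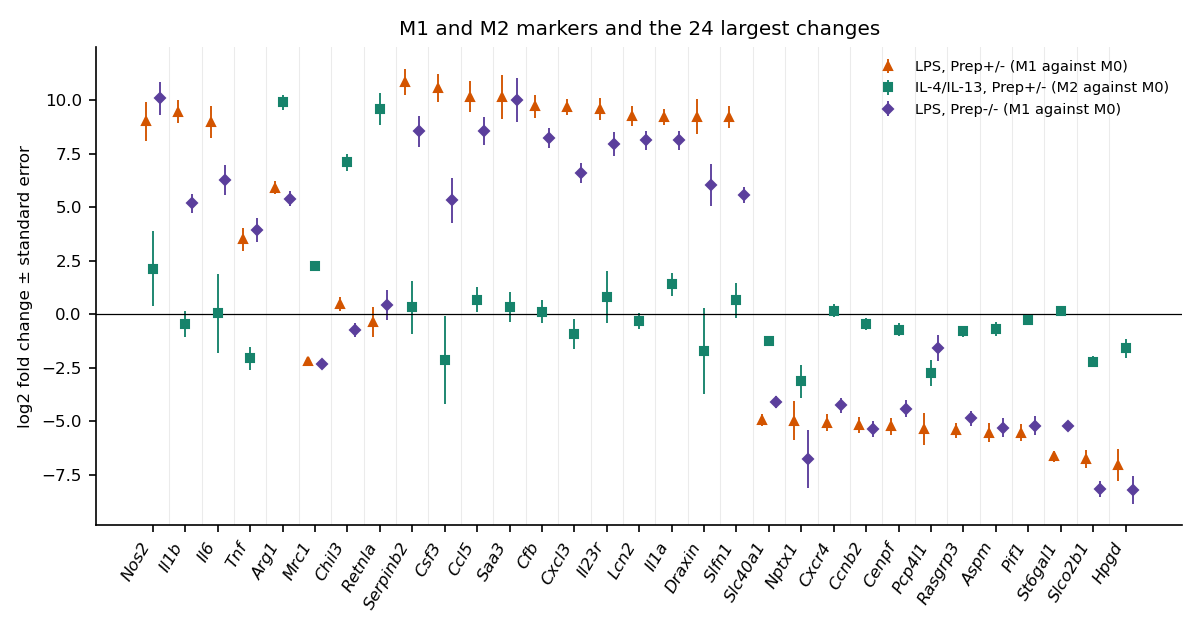
Log2 fold change with its standard error for the 8 M1 and M2 markers (left) and the 12 largest rises and 12 largest falls of the LPS response, in M1 against M0 of *Prep*+/- (orange triangles), M2 against M0 of *Prep*+/- (green squares) and M1 against M0 of *Prep*-/- (purple diamonds). The LPS responses lie on the same side of 0 in all genes shown but *Chil3* and *Retnla*, which were called in neither. *Il1b*, *Slfn1*, *Pcp4l1* and *St6gal1* are the genes shown whose difference between genotypes was called.

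Promoter windows like those shown at the start were available, once per gene symbol, for 22862 genes. Matches were counted on both strands for kappaB (GGANTTTCC), ISRE (GAAANNGAA), the gamma-activated site (GAS, TTCNNNGAA) and AP-1 (TGANTCA). The kappaB letters were in 1.25% of all windows and in 1.39% of those of 7702 genes tested. They were in 2.63% of 1294 windows of genes higher in M1, in 0.957% of 1567 windows of genes lower, and in 11.5% of 131 windows of genes that rose more than 16-fold. The ISRE letters were in 8.62% of all windows and 7.49% of the genes tested, in 12.4% of the higher, 6.76% of the lower and 22.1% of the more than 16-fold higher genes. AP-1 letters were in 4.47% of the lower, 7.88% of the higher and 16.8% of the most risen genes, beside 4.86% of the genes tested and 7.98% of all windows. GAS letters differed least, at 5.49%, 7.81% and 9.16%, beside 6.84% of the genes tested and 8.49% of all windows. No test was made on these shares.

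By function, the ISRE letters were in 15 of 26 windows of interferon-stimulated genes and in 8 of 9 windows of guanylate-binding proteins and immunity-related GTPases. The GAS letters were in 6 of those 9 windows. In 15 windows of chemokine genes the kappaB, ISRE and AP-1 letters were each in 4 and the GAS letters in 1, and in 15 of cytokine genes kappaB and AP-1 were each in 3 and ISRE and GAS each in 1. Of 24 windows of mitotic genes, 1 held the kappaB letters and 1 the ISRE letters. Matches of kappaB and ISRE overlapped each other in 2 windows.

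**Figure D5:**
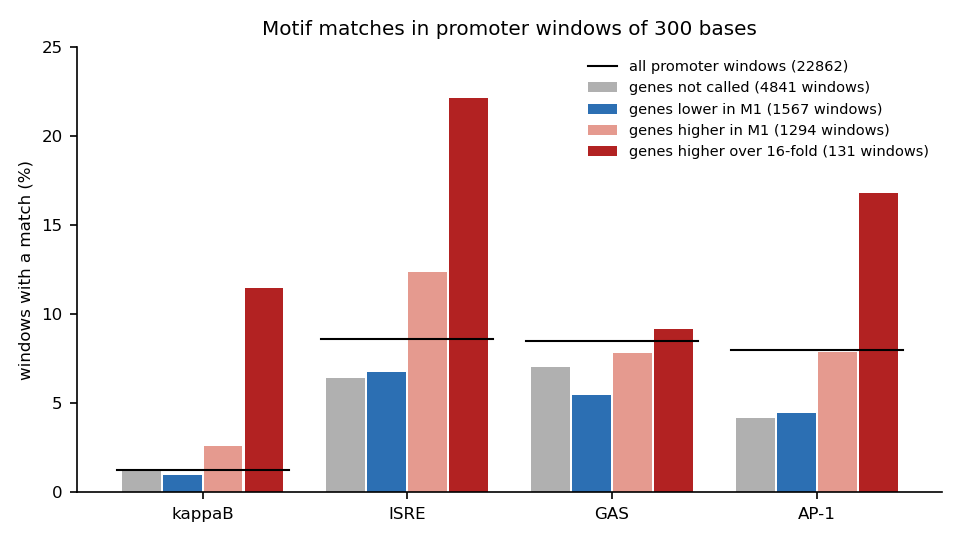
Share of promoter windows with at least 1 match to each motif, in percent, for genes not called (grey), lower in M1 (blue), higher in M1 (light red) and higher more than 16-fold (red), with a line at the share of all 22862 windows. The red bars stand at 11.5% for kappaB, 22.1% for ISRE, 9.16% for GAS and 16.8% for AP-1.

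Some of the rises stood next to each other on the chromosomes. Among 11773 tested genes with a position on GRCm39, 14 runs of 5 or more neighbouring tested genes were all higher in M1, and 10 runs were all lower. The longest run of rises covered 10 genes at chr11:83402562-83677667, among them the chemokine genes *Ccl5*, *Ccl9*, *Ccl6*, *Ccl3* and *Ccl4*. The next held 9 genes of the Ms4a region at chr19:11278613-11582213, from *Ms4a14* to *Ms4a6d*. A run of 8 at chr5:90638584-91053797 held the CXC chemokine genes *Cxcl5*, *Ppbp*, *Pf4*, *Cxcl3*, *Cxcl1* and *Cxcl2*. Runs of 6 lay at the Ifit genes on chromosome 19 and at the Trem genes on chromosome 17, and runs of 5 at the Ifi200 genes of chromosome 1, the Oas genes of chromosome 5 and the Ifitm genes of chromosome 7. These genes were named for their place in a run, after their values had been seen. Falls had no run longer than 6, one of which held the transporter genes *Abca8b*, *Abca9*, *Abca6* and *Abca5* on chromosome 11.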

How the data were processed

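Bulk RNA-seq counts of 18 libraries (6 groups of genotype and state, 3 libraries each) were used, of which 6 carry the LPS response of *Prep*+/- BMDMs. Per the labels and the study's methods, the authors trimmed reads with Trimmomatic 0.36, aligned them to GRCm39 with HISAT2 2.2.1.0 and made the table with StringTie, and the deposited values are raw counts per gene and library. The library kit was stranded. The annotation release, the strand setting of the counting and the handling of reads shared by several genes are not given in the sources used here. Library totals lay between 19068237 and 21739969 in the 6 libraries, and 0 columns of per-sample values could not be matched to a sample.

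Genes were filtered with edgeR's filterByExpr (12021 of 16314 kept), scaled by TMM and tested with edgeR 4.0.16 (R 4.3.3) by the quasi-likelihood F test, in a model of the 18 libraries with a mean for each group, which share a spread. That spread includes replicate 3 of *Prep*-/- M0, described above, and replicate 3 of *Prep*-/- M2. The latter had a chi-square per degree of freedom of 111 against each of its replicates. P-values were adjusted over all genes tested by the Benjamini-Hochberg method, and a call needed a value below 0.05 together with more than a 1.5-fold difference. The study's methods name DESeq2, which was an alternative here (1.42.0), beside other scalings, filters, fold limits, libraries in the fit, a replicate block and leaving out each library. A normalized count is the count over the effective size of its library, put on the scale of an average library. A group with at most 3 counts in each library was taken as at its floor, so that only a bound can be given for a fold against it. Standard errors are those implied by the F statistic. Deviations from the group means had correlations of 0.20, 0.17 and 0.26 in same-numbered *Prep*-/- M0 and M1 libraries. Differently numbered *Prep*+/- libraries reached 0.325 (M0 replicate 3 and M1 replicate 1), so such values do not show whether the numbers pair libraries. The script was tested on simulated data.

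Gene lists, markers and the genes named were chosen with earlier results of these data known. The genes named are the 12 largest rises and 12 largest falls among called genes whose groups do not overlap and whose mean reaches 5 CPM, in each list the first gene, the 3 largest called rises and the 3 largest called falls, members named as not called, and *Prep*, of which some are not reported here. The other genes named are said to have been chosen after their values were seen, or are given for an overlap, a copy or as one of the 8 study markers. Symbols were matched to GENCODE vM39 (GRCm39), 15636 directly, 99 through an older symbol, 31 with several loci and 548 not at all. Near-identical transcripts were found with blastn 2.17.0. Promoter windows came from RefSeq on GRCm38.p6, for symbols with 1 window only.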

Additional observations from a re-analysis of the deposited data

Results flagged for a closer look

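The difference between the LPS responses of *Prep*-/- and *Prep*+/- BMDMs was tested for the 31 genes formed by the 24 largest changes and the 8 study markers, which share *Il1b*, and was called for 4 of them, beside 21.1% of all genes tested. *Il1b* had a log2 fold change of 9.46 in *Prep*+/- and 5.18 in *Prep*-/- cells, a difference of -4.27 (adjusted p = 1.79e-04, edgeR's quasi-likelihood test with Benjamini-Hochberg adjustment). *Slfn1* had 9.21 and 5.57, a difference of -3.64 (adjusted p = 0.00111). *St6gal1* had -6.64 and -5.23, a difference of 1.40 (adjusted p = 0.00622). *Pcp4l1* had -5.37 and -1.59, a difference of 3.77 (adjusted p = 0.0102). The responses kept the same sign in both genotypes in all 4 genes, and the *Prep*-/- response of *Pcp4l1* was called too. *Prep*-/- M0 replicate 3 stood further from its group than any library compared here did from its own, and the 4 differences remained called without it and under every other alternative tried. Among all 193 genes named by rule, 81 were called for the difference. Apart from the first gene of each list and *Prep*, these genes were picked by the size of their *Prep*+/- response. That response is part of the difference, as it is for the 24 largest changes. These counts are therefore not comparable with the share of all genes. Outlying values of single genes within groups were not looked for, because each group has 3 libraries. The causes of these differences were not tested.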

How the results depend on the processing

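The counts of genes higher and lower in M1 depended most on the scaling. With library totals they were 1052 and 4995. A test against a fold change of 1.5 (glmTreat) gave 1313 and 1643, and a fold change over 2 gave 1169 and 1612. The cause of the dependence on scaling was not tested, and the other 2 settings are stricter by construction. Under the remaining alternatives both counts stayed within 1.5 times the reported ones, as did those of the other comparisons under all alternatives. Leaving out 1 library at a time gave 1834 to 2039 genes higher and 2339 to 2596 lower, 1873 to 3087 for the difference between genotypes, 4215 to 4421 between M1 and M2, and 1284 to 1388 for IL-4 and IL-13. Of the reported calls of M1 against M0 in *Prep*+/- cells, between 90.4% and 93.9% were then kept, and 0 were called in the opposite direction.

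Changes of sign were limited to 3 genes named but not called. *Csf1r* had -0.37 and *Ndufa1* -0.063 with library totals. *Ctsb* had 0.00272 with DESeq2's Wald test and with DESeq2's size factors, 0.000327 in a fit of the compared libraries alone and 0.000947 with a replicate block. Of the other values of the 193 named genes under the alternatives, 2589 kept their direction and their side of the limit on adjusted p. Another 95 (30 genes) lost significance and 3 gained it (*Prep* and *Ctsb* with library totals and *Ccnd1* in the fit of the compared libraries). These counts leave out the fold limit that a call also needs. The lowest values of *Mdh2* and *Dlst*, 0.52 and 0.23 on the log2 scale, lay under that limit but were counted as kept. The 2589 values are therefore not a count of calls kept. Of the counts per list 1004 values stayed within 1.5 times and 116, from 33 of the 70 counts, did not.

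The replicate block gave 2064 genes higher and 2436 lower, 95.2% of the reported calls among them, and 2632 genes for the difference between genotypes. Same-numbered *Prep*+/- M0 and M1 libraries had correlations of their deviations from the group means of -0.27, 0.08 and -0.06. Those of *Prep*-/- had 0.20, 0.17 and 0.26. Whether the numbers mark shared animals or cultures cannot be told from these values. Low counts limit the folds of genes near 0 in a group, which are bounds.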
